A study of Rattus norvegicus with 3 samples.

Results

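The genes described are 9 members of the retinoic acid pathway in rat, 9 of the 17328 genes in the files. They were taken by symbol: Rdh10, Aldh1a1, Aldh1a2 and Aldh1a3 for synthesis, Cyp26b1 for breakdown, and Rara, Rarb, Rxra and Rxrg as receptors. Nuclear RNA was counted in 3 libraries of spinal cord, 1 library per group, from wild-type (WT) SD rats aged 17 weeks. The groups were HGF-releasing scaffold implantation (hepatocyte growth factor released from an implanted scaffold; HGF scaffold), scaffold implantation without HGF (scaffold), and no treatment (untreated). The tissue was the lesion epicenter, taken at day 49 of a spinal cord injury and, where there was an implant, at day 7 of it. All 3 groups carried the injury according to the series' design text, and no uninjured cord was analysed here. The number of animals behind a library is not given in the sources used here. With 1 library per group no difference between libraries could be tested, so the ratios below compare these libraries, and their intervals cover counting error only.

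Retinoic acid is made from vitamin A. Retinol is oxidised to retinal, mainly by the dehydrogenase Rdh10, and retinal is oxidised irreversibly to retinoic acid by the aldehyde dehydrogenases Aldh1a1, Aldh1a2 and Aldh1a3. Cyp26 enzymes, among them the cytochrome P450 Cyp26b1, hydroxylate retinoic acid and so clear it. The acid acts in the nucleus on retinoic acid receptors (Rara, Rarb), which bind DNA as dimers with retinoid X receptors (Rxra, Rxrg) at paired half-sites. In the central nervous system the meninges, the fibroblast-rich membranes around brain and cord, are a known source of retinoic acid through Aldh1a2.

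The promoters of the member that makes retinoic acid in the meninges, of the member that clears it, and of the receptor gene that is itself a textbook target were read from RefSeq (build GRCr8), to show how the DNA upstream of them differs. RefSeq promoters were matched for 8 of the 9 genes. A spaced pair of half-sites, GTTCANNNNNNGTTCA on either strand, was present in 140 of 33469 windows of 300 bases around RefSeq gene starts (0.418%), and among the 8 members with a window only Rarb held it. It lay on the + strand at bases 26 to 41, counted from the first transcribed base as 1, and is in capitals in the first line, which shows chr15:11336409-11336438.
Rarb, after the start: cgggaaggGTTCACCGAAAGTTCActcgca
The 250 bases before each start are given in lower case, for Rarb at chr15:11336142-11336391 (+ strand), for Aldh1a2 at chr8:80758391-80758640 (+ strand) and for Cyp26b1 at chr4:118616177-118616426 (- strand).
Rarb, before the start: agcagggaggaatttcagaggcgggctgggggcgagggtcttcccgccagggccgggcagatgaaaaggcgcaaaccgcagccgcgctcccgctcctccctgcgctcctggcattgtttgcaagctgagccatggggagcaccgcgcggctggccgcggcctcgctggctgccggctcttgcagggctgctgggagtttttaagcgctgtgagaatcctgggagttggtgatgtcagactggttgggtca
Aldh1a2, before the start: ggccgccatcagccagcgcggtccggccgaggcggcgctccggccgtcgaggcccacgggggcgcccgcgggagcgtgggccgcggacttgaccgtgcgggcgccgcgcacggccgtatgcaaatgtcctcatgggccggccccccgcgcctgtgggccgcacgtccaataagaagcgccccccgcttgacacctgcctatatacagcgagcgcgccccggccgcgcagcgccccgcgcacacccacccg
Cyp26b1, before the start: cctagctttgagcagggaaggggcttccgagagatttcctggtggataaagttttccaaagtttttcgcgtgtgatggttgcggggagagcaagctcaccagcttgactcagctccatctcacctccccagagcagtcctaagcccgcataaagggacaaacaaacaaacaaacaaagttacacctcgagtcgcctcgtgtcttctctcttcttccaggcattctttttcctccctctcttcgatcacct
The window of Aldh1a2 was rich in G and C, at 76.0% of its bases with 47 CpG dinucleotides. That of Cyp26b1 had 52.7% and 12, and that of Rarb 63.0% and 21. The shorter spacing, GTTCANNNGTTCA on either strand, was in 38 of the windows (0.114%) and in no member's. A match of letters is a description of the window, and binding was not measured.

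The libraries differed in size and depth. The HGF scaffold, scaffold and untreated libraries held 906, 2168 and 2252 nuclei and 1450757, 5791715 and 5953189 unique molecular identifiers (UMIs, counts of captured RNA molecules). Median UMIs per nucleus were 1047, 1639 and 1407.5. The same cell barcode was found in more than 1 library for 4 barcodes. After filters, 5322 nuclei formed 20 clusters, of which 3 kept no cell type name. Levels below are UMIs of a gene per 1000000 UMIs (CPM), summed over the nuclei of a cluster in a library. They are not scaled to transcript length, so no level is compared between genes.

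Meningeal nuclei were defined by the transporter genes Slc6a13, which carries GABA and taurine, and Slc6a20, which carries proline. Both were among the leading genes of 2 clusters, here called the Slc6a13 cluster and the Ptgds cluster after their first genes. Together these held 50 HGF scaffold, 272 scaffold and 387 untreated nuclei, 709 of the 5322. The same rule took 276 nuclei with finer clustering, 335 with libraries clustered alone and 279 with retinoid genes kept. Of these, 273, 272 and 267 were among the 709, so the size of the set depends on the clustering. The 709 nuclei made up 5.52% of the HGF scaffold library (4.12 to 7.21% by an exact 95% binomial interval), 12.5% of the scaffold library (11.2 to 14.0%) and 17.2% of the untreated library (15.7 to 18.8%). The untreated library had the highest share and the HGF scaffold library the lowest, and the intervals of the 3 libraries did not overlap. The Slc6a13 cluster alone made up 2.54% (1.62 to 3.78%), 4.01% (3.23 to 4.93%) and 6.90% (5.88 to 8.02%) in the same order. Its HGF scaffold and scaffold intervals overlapped. These intervals cover the counting of nuclei within a library only. A lower count of meningeal RNA in a whole library therefore cannot be told apart from fewer meningeal nuclei unless the level is taken within them.

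The list of meningeal fibroblast markers holds both transporters and gave these clusters their name, so its level describes them and is no separate check of the label. Without the transporters its 9 other markers in the files were all detected in the meningeal nuclei of each library. They summed to 2371, 2239.9 and 2592 CPM in the HGF scaffold, scaffold and untreated libraries, against 1132, 923 and 1707 CPM in all other nuclei. Markers of other cells were also present in them. Scar fibroblast markers, with 10 of 10 detected in each library, summed to 8674, 6109.7 and 8639.8 CPM in meningeal nuclei, against 4964, 2937 and 6192 CPM elsewhere, and reached 12808, 7057 and 12034 CPM in the Ptgds cluster. Schwann cell markers, with 6, 9 and 9 of 10 detected and Ncmap at 0 in every library, summed to 941, 839.5 and 885 CPM, against 225, 313 and 592 CPM elsewhere. In the Ptgds cluster they came to 1824, 1108 and 1518 CPM. The astrocyte list summed to 2107, 2194 and 2194 CPM in meningeal nuclei, against 695, 989 and 1087 CPM elsewhere, with Slc7a10 at 0 in every library and Slc1a2 at 0 in the HGF scaffold library. Myeloid markers summed to 1712, 1971 and 991 CPM, against 3140, 2608 and 739 CPM in the other nuclei. Oligodendrocyte markers summed to 3330, 3142 and 3643 CPM in meningeal nuclei, against 2619, 3222 and 4469 CPM elsewhere. In the Ptgds cluster they came to 4094, 3833 and 4700 CPM, with Mog, Mag and Opalin at 0 in the HGF scaffold library. The part of these markers of other cells in the results was not tested. Meningeal nuclei were shallower than the rest, with medians of 786, 846.5 and 949 UMIs against 1066, 1791.5 and 1565. A further pair of clusters, led by Slc26a7 and by Cldn1, carried meningeal fibroblast markers without both transporters in the lead. They are given separately below.

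Across the 3 libraries, 3 members stood at least 2-fold higher in meningeal than in other nuclei in each library or in the libraries that counted enough of them. Aldh1a2 and Rarb did so in all 3, and Cyp26b1 in the scaffold and untreated libraries, the HGF scaffold library holding too few of its UMIs. Of the members counted at least 20 times in the HGF scaffold library, 4 of 5 were at least 2-fold higher in meningeal nuclei (Aldh1a2, Rdh10, Rara and Rarb), where 15.2% of all genes were. In the scaffold library the count was 5 of 8 (Aldh1a1, Aldh1a2, Rdh10, Cyp26b1 and Rarb), against 14.3% of all genes. In the untreated library it was 3 of 8 (Aldh1a2, Cyp26b1 and Rarb), against 15.6% of all genes. The median log2 ratio of these members was 2.07, 1.29 and 0.63 in the HGF scaffold, scaffold and untreated libraries, against 0.00, 0.00 and 0.06 over all genes. Lower in meningeal nuclei by at least 2-fold were Rxra in the HGF scaffold library and Rxrg in the scaffold library. The Rxrg ratio of 0.300 rests on 1 meningeal UMI (0.00747 to 1.74), includes 1 in its interval and was past 2-fold in 7 of 14 other settings.

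**Figure D1:**
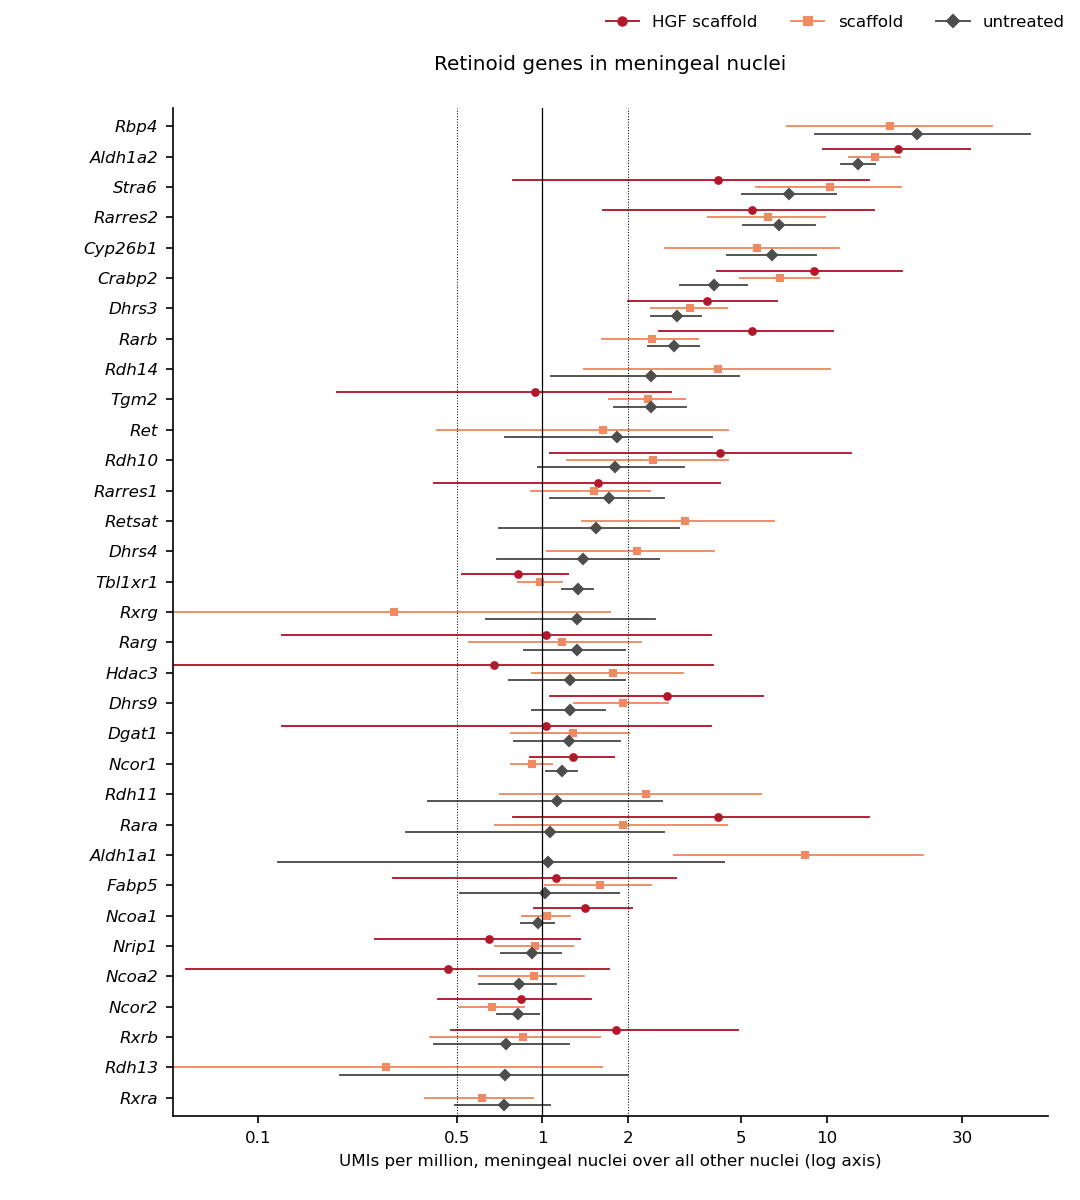
Ratio of summed CPM in meningeal nuclei over all other nuclei of the same library (log axis; dotted lines at 0.5 and 2) for genes of the retinoid lists, those shown having at least 20 UMIs, 1 marker per library, bars being exact 95% intervals for counting error. Aldh1a2 lies at 17.8, 14.8 and 12.9 in the HGF scaffold, scaffold and untreated libraries, and Rxra at or below 1 in the 2 libraries shown. Ratios with 0 meningeal UMIs are not drawn, and bars end at the edge of the axis.

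Rdh10, the retinol dehydrogenase of the first step, was detected at low counts in most clusters. Meningeal nuclei held 4, 12 and 15 of its UMIs in the HGF scaffold, scaffold and untreated libraries. These came to 75.3, 39.4 and 26.2 CPM, against 17.9, 16.04 and 14.5 CPM in all other nuclei. The level was higher in meningeal nuclei in each library, by 4.21-fold (1.06 to 12.2), 2.45-fold (1.22 to 4.51) and 1.80-fold (0.964 to 3.16). The interval of the untreated library included 1, and other choices of meningeal nuclei lowered the ratio to as little as 1.69 in the HGF scaffold library and 1.496 in the scaffold library. Between libraries the meningeal level differed within counting error, scaffold over untreated being 1.503 (0.642 to 3.44). Over all nuclei Rdh10 stood at 19.99, 17.3 and 15.6 CPM in the 3 libraries, a narrow range.

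Aldh1a1, an aldehyde dehydrogenase that makes retinoic acid, was rare, with 44 UMIs in 39 nuclei of all libraries together. In meningeal nuclei it had no UMI in the HGF scaffold library, where the floor of 3 counts is 56.4 CPM, 7 UMIs in the scaffold library and 2 in the untreated library. The scaffold library's 23.0 CPM was 8.40-fold (2.90 to 21.9) that of its other nuclei, and the untreated library's 3.49 CPM was 1.04-fold. The scaffold ratio turned below 1 when meningeal nuclei were chosen by marker score or by a transporter UMI. In astrocyte-like nuclei it had 0, 5 and 7 UMIs. Aldh1a3, the third enzyme of this family, had 27 UMIs in 17 nuclei, of which up to 6 were in a single nucleus. It had 4 meningeal UMIs in the untreated library and none in either implant library, too few for a ratio.

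Aldh1a2, the main retinoic acid-making enzyme of the meninges, was the synthesis gene with most UMIs in meningeal nuclei. Of its 1261 UMIs, 53.4% were in meningeal nuclei, and by library 40.4%, 45.1% and 57.9% of the HGF scaffold, scaffold and untreated UMIs were there, although meningeal nuclei held only 3.66%, 5.26% and 9.63% of all UMIs. Its meningeal level was 395 CPM in the HGF scaffold library (245 to 604, 21 UMIs), 558 CPM in the scaffold library (477 to 648, 170 UMIs) and 841 CPM in the untreated library (768 to 920, 482 UMIs). All other nuclei stood at 22.2, 37.7 and 65.1 CPM. Meningeal nuclei were thus 17.8-fold (9.73 to 32.0), 14.8-fold (11.99 to 18.2) and 12.9-fold (11.2 to 14.9) higher, and the ratio's intervals overlapped between libraries. The genes of the retinoid lists were left out of the clustering, so Aldh1a2 did not choose these nuclei.

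Within the meningeal nuclei, Aldh1a2 was concentrated in the Slc6a13 cluster. There it reached 527, 997 and 1260.1 CPM in the HGF scaffold, scaffold and untreated libraries, from 15, 124 and 379 UMIs. The Ptgds cluster, named for the prostaglandin D synthase gene, had 243, 255 and 378 CPM. The Slc6a13 cluster was higher than the Ptgds cluster in each library, and the intervals overlapped in the HGF scaffold library alone. The Cldn1 cluster, whose first gene encodes a tight junction protein, had 97.5, 50.8 and 104 CPM, and the Slc26a7 cluster, whose first named gene encodes an anion transporter, had 42.8, 39.0 and 75.9 CPM. Scar fibroblast-like nuclei, which carry collagen genes such as Col1a1, had 95.6, 74.6 and 80.5 CPM. These 3 clusters lay below the Slc6a13 cluster in each library, with overlapping intervals in the HGF scaffold library for the Cldn1 cluster.

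**Figure D2:**
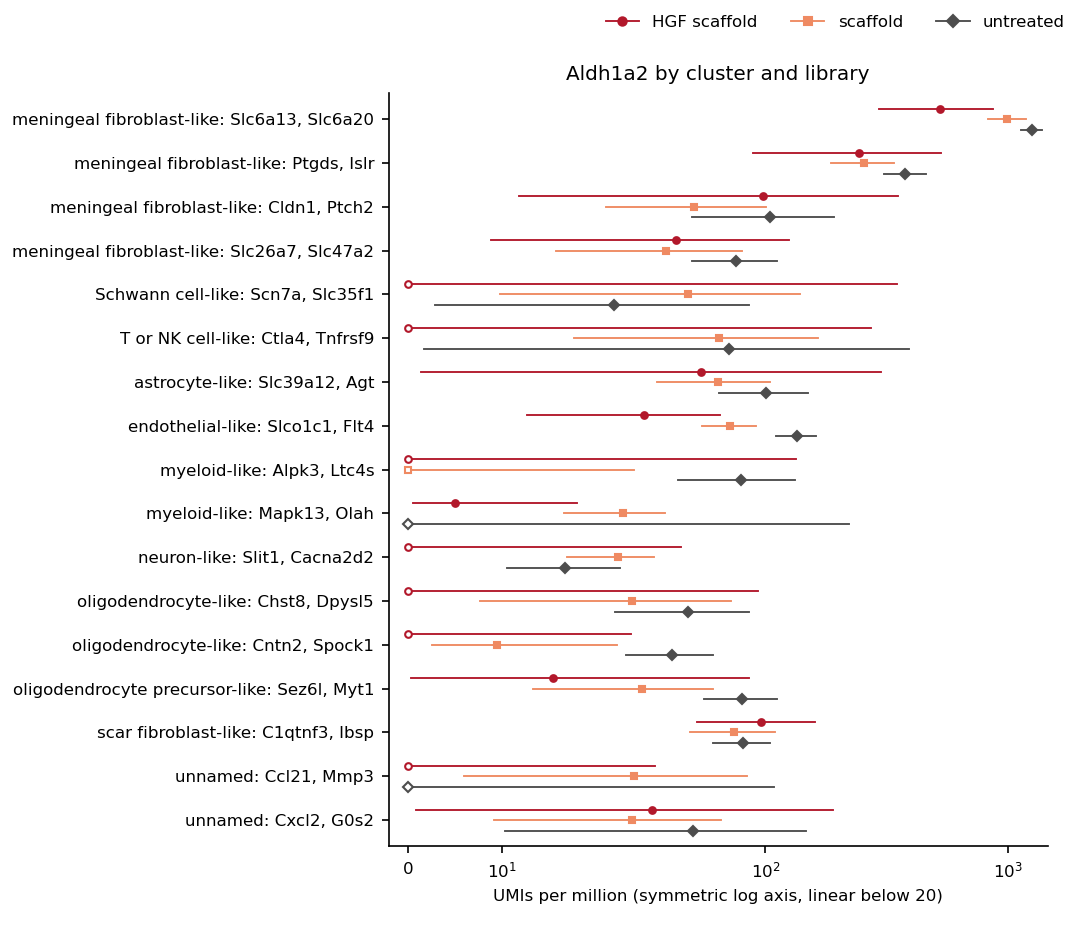
Aldh1a2 level (CPM, symmetric log axis, linear below 20) in clusters of at least 50 nuclei, 1 marker per library with at least 10 nuclei of it; bars are exact 95% Poisson intervals and open markers are 0 UMIs. The Slc6a13 cluster lies at 527, 997 and 1260.1 in the HGF scaffold, scaffold and untreated libraries, to the right of the other clusters shown.

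As a share of nuclei, 24% of HGF scaffold (12 of 50), 22.4% of scaffold (61 of 272) and 31.5% of untreated meningeal nuclei (122 of 387) had an Aldh1a2 UMI, against 2.22%, 5.96% and 7.90% of all other nuclei. Oligodendrocyte-like nuclei of the Cntn2 cluster had 0%, 1.44% and 6.21%, at medians of 1120.5, 2431 and 2650 UMIs. With every nucleus thinned to 500 UMIs the meningeal shares were 14.0%, 14.3% and 19.4%, those of all other nuclei 0.584%, 2.06% and 2.85%, and those of the Cntn2 cluster 0%, 0.719% and 0.565%. The shares in meningeal nuclei lay above those of all other nuclei and of the Cntn2 cluster before and after thinning. The nucleus with most Aldh1a2 held 32 UMIs of it.

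Nuclei outside the meningeal clusters, summed, carried Aldh1a2 in a proportion to the transporter genes that overlapped that of the meningeal nuclei. Per UMI of Slc6a13 and Slc6a20 together there were 0.353 Aldh1a2 UMIs in meningeal nuclei (0.322 to 0.385) and 0.316 in all other nuclei (0.288 to 0.347). By library the meningeal value was 0.236, 0.341 and 0.365 in the HGF scaffold, scaffold and untreated libraries, and the other nuclei had 0.237, 0.282 and 0.351. Endothelial-like nuclei had 0.372 (0.312 to 0.443), astrocyte-like nuclei 0.400 and the oligodendrocyte-like Cntn2 cluster 0.326. Away from that ratio stood the scar fibroblast-like nuclei with 0.513 (0.398 to 0.659), neuron-like nuclei with 0.198 (0.146 to 0.264) and the Cldn1 cluster with 0.113 (0.0674 to 0.180). So did the oligodendrocyte-like Chst8 cluster with 1.07 (0.482 to 2.40), from 15 Aldh1a2 and 14 transporter UMIs, and the unnamed Cxcl2 cluster with 0.105 (0.0463 to 0.208). Aldh1a2 in endothelial-like nuclei, astrocyte-like nuclei and the Cntn2 cluster did not separate from the meningeal ratio to the transporters. The same held for the Slc26a7 cluster with 0.237 (0.160 to 0.342) and oligodendrocyte precursor-like nuclei with 0.463 (0.316 to 0.669). Whether the Aldh1a2 counted in these clusters is their own expression was not tested. Of 178 Aldh1a2 UMIs in endothelial-like nuclei, 165 were in the 115 nuclei with a transporter UMI. Those nuclei had 193 CPM, against 12.5 CPM in the other 327. The 54 endothelial-like nuclei with an Aldh1a2 UMI had a median of 6614 UMIs, against 2114.5 in those without. The part of free RNA, or of nuclei captured together, in the Aldh1a2 levels outside the meningeal nuclei was not tested.

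**Figure D3:**
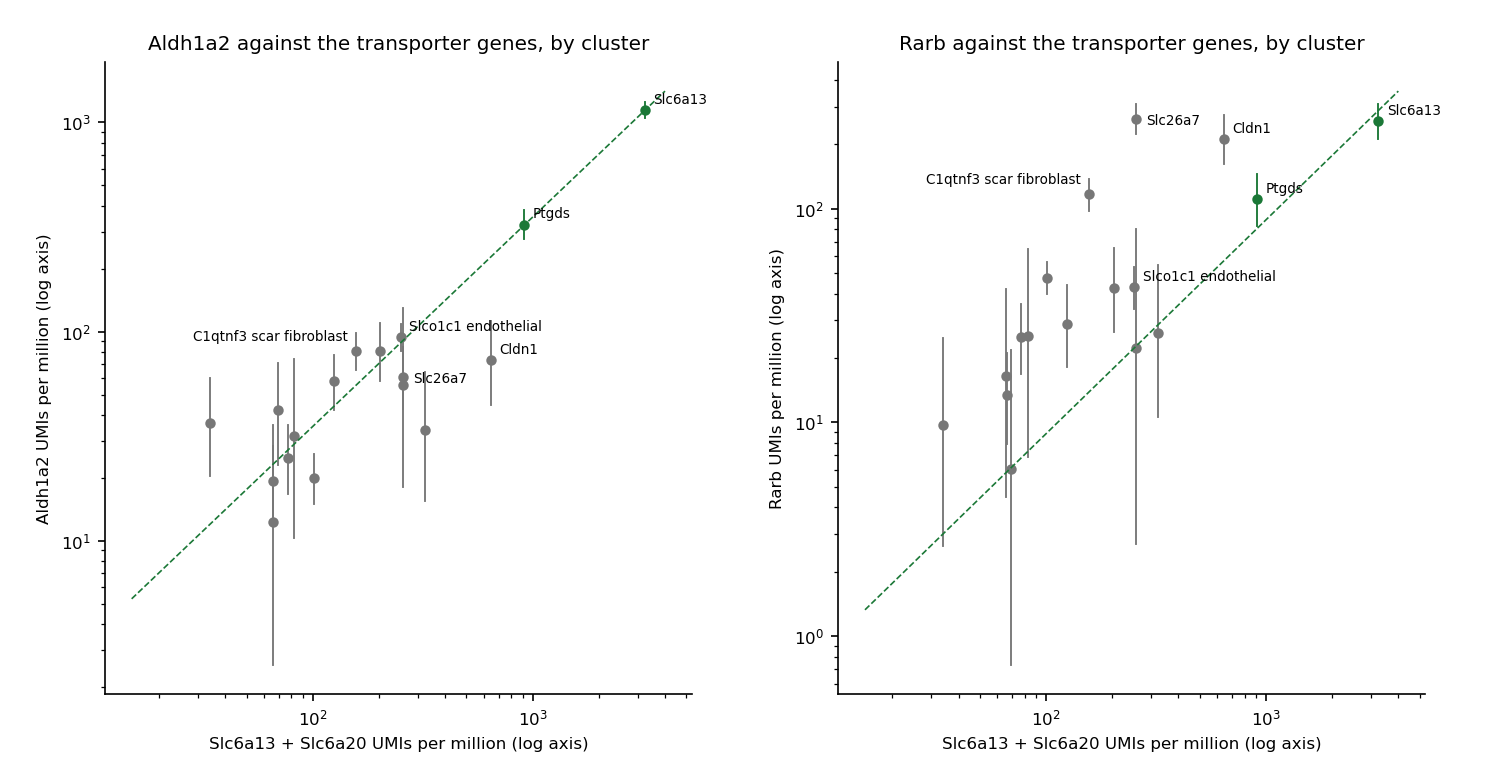
Level of Aldh1a2 (left) and Rarb (right) against the summed level of Slc6a13 and Slc6a20, all in CPM on log axes, 1 point per cluster shown over all libraries with exact 95% Poisson bars; green points are the meningeal clusters, and the dashed line is the ratio in meningeal nuclei (0.353 for Aldh1a2, 0.0885 for Rarb). Endothelial-like nuclei lie near the line for Aldh1a2, and for Rarb the Slc26a7, Cldn1 and scar fibroblast-like clusters lie above it.

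Between libraries, the meningeal Aldh1a2 level was lower with an implant than without. It was 0.470-fold (0.288 to 0.726) in HGF scaffold over untreated nuclei and 0.663-fold (0.553 to 0.791) in scaffold over untreated nuclei. HGF scaffold over scaffold was 0.709 (0.428 to 1.12), an interval that included 1. The transporters that define these nuclei were lower in the same libraries, at 1675, 1633 and 2307 CPM in the HGF scaffold, scaffold and untreated meningeal nuclei. Aldh1a2 per transporter UMI was 0.236 (0.139 to 0.383), 0.341 (0.285 to 0.407) and 0.365 (0.328 to 0.405), with overlapping intervals, so a difference in Aldh1a2 beyond that of the transporters was not detectable. Within the Slc6a13 cluster the same 3 ratios were 0.418 (0.232 to 0.698), 0.791 (0.641 to 0.971) and 0.528 (0.287 to 0.906). In the Ptgds cluster they were 0.643, 0.673 (0.465 to 0.962) and 0.954. Across the other settings tried, HGF scaffold over untreated ranged over 0.203 to 0.673 and was past 2-fold in 12 of 15. The HGF scaffold values rest on 15 UMIs in 23 nuclei of the Slc6a13 cluster and 6 UMIs in 27 nuclei of the Ptgds cluster. Over all nuclei the libraries stood further apart, at 35.8, 65.1 and 139.9 CPM in the HGF scaffold, scaffold and untreated libraries. The ratio was 0.256 (0.190 to 0.339) for HGF scaffold over untreated and 0.465 (0.411 to 0.526) for scaffold over untreated, and the share of meningeal nuclei differed in the same order.

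Cyp26b1, the enzyme that clears retinoic acid, had 191 UMIs in 122 nuclei, 35.6% of them in meningeal nuclei. Its meningeal level was 37.6 CPM in the HGF scaffold library (2 UMIs), 39.4 CPM in the scaffold library (12 UMIs) and 94.3 CPM in the untreated library (54 UMIs, 70.8 to 123). All other nuclei had 4.29, 6.93 and 14.7 CPM. The ratio was 5.68 (2.70 to 11.1) in the scaffold library and 6.41 (4.45 to 9.18) in the untreated library. The HGF scaffold library held too few UMIs for a ratio. With nuclei assigned by marker score the untreated ratio was 1.92, no longer past 2-fold. Genes for making and for clearing retinoic acid thus both stood higher in meningeal nuclei than in the rest.

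Cyp26b1 did not follow Aldh1a2 in being higher in the Slc6a13 cluster. In the untreated library Cyp26b1 stood at 129 CPM in the Ptgds cluster (35 UMIs, 89.6 to 179) and 63.2 CPM in the Slc6a13 cluster (19 UMIs, 38.03 to 98.6), with overlapping intervals, while Aldh1a2 was higher in the Slc6a13 cluster. The scaffold library had 38.8 CPM (7 UMIs) in the Ptgds cluster and 40.2 CPM (5 UMIs) in the Slc6a13 cluster, which did not differ beyond counting error. The HGF scaffold library had 2 UMIs in the Ptgds cluster and none in the Slc6a13 cluster, where a count of 0 allows up to 105 CPM. Endothelial-like nuclei had 9.02, 8.18 and 25.7 CPM in the HGF scaffold, scaffold and untreated libraries. Myeloid-like nuclei of the Mapk13 cluster had no Cyp26b1 UMI in any library.

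Cyp26b1 was lower in scaffold than in untreated meningeal nuclei, by 0.418-fold (0.203 to 0.790), and in the Ptgds cluster by 0.301-fold (0.113 to 0.689). HGF scaffold over untreated was 0.399 in meningeal nuclei (0.0472 to 1.51), from 2 UMIs. Over all nuclei the ratios were 0.247 (0.104 to 0.5001) for HGF scaffold over untreated, 0.386 (0.273 to 0.538) for scaffold over untreated and 0.639 for HGF scaffold over scaffold. A single untreated meningeal nucleus held 8 Cyp26b1 UMIs, and the highest counts in HGF scaffold and scaffold meningeal nuclei were 2 and 1. With the Slc6a13 cluster alone taken as meningeal the scaffold over untreated ratio was 0.636, no longer past 2-fold.

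Aldh1a2 and Cyp26b1 were found in the same meningeal nuclei at times. Of the 195 meningeal nuclei with an Aldh1a2 UMI 9.23% also had a Cyp26b1 UMI, against 4.28% of the 514 without one. The nuclei with Aldh1a2 were deeper, with medians of 1171 and 812.5 UMIs. Thinned to 500 UMIs, the shares were 5.79% of 121 and 2.38% of 588 nuclei. For Rarb the same shares were 25.6% and 10.5% as counted, and 7.44% and 4.76% after thinning. Within the Slc6a13 cluster the thinned Rarb shares were 6.41% of 78 nuclei with Aldh1a2 and 8.56% of 187 without, so the pooled order did not hold there. These shares pool the libraries and describe nuclei, which are not replicates.

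Rarb, the retinoic acid receptor whose gene is a textbook target of retinoic acid, had 866 UMIs in 547 nuclei. Its meningeal level was 207 CPM in the HGF scaffold library (103 to 370, 11 UMIs), 104.9 CPM in the scaffold library (71.8 to 148, 32 UMIs) and 219.9 CPM in the untreated library (183 to 262, 126 UMIs). All other nuclei had 37.9, 43.2 and 75.7 CPM. Meningeal nuclei were higher by 5.46-fold (2.57 to 10.6), 2.43-fold (1.62 to 3.52) and 2.90-fold (2.36 to 3.55). Thinned to 500 UMIs per nucleus, the untreated ratio was 1.30, no longer past 2-fold.

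Rarb was also high in fibroblast-like clusters outside the meningeal nuclei as defined here. The Slc26a7 cluster had 157, 201 and 318 CPM in the HGF scaffold, scaffold and untreated libraries, and the Slc6a13 cluster 281, 169 and 289 CPM. In the Cldn1 cluster it had 146, 216 and 219 CPM, from 3, 34 and 21 UMIs. Scar fibroblast-like nuclei had 81.9, 115 and 124 CPM, and the Ptgds cluster 122, 60.9 and 143 CPM. Neuron-like nuclei stood at 36.3, 38.8 and 56.5 CPM and endothelial-like nuclei at 31.6, 28.1 and 61.2 CPM. The Slc6a13, Slc26a7 and Cldn1 clusters did not separate beyond counting error in the untreated library. Per transporter UMI, Rarb had 0.0885 UMIs in meningeal nuclei (0.0752 to 0.104) and 1.03 in the Slc26a7 cluster (0.816 to 1.29), with 0.741 in scar fibroblast-like, 0.470 in neuron-like and 0.169 in endothelial-like nuclei.

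Meningeal Rarb was 0.477-fold (0.313 to 0.708) in scaffold over untreated nuclei. HGF scaffold over scaffold was 1.97 (0.897 to 4.02) and HGF scaffold over untreated was 0.941 (0.458 to 1.74), both with 1 inside the interval. Scaffold over untreated was 0.584 (0.344 to 0.949) in the Slc6a13 cluster, 0.425 (0.196 to 0.846) in the Ptgds cluster and 0.631 (0.420 to 0.927) in the Slc26a7 cluster. The scaffold value was lower than the untreated value in each of these. Thinned to 500 UMIs, however, the shares of meningeal nuclei with a Rarb UMI were 6%, 5.15% and 5.17% in the HGF scaffold, scaffold and untreated libraries, against 18%, 9.19% and 18.1% as counted, and the scaffold over untreated ratio was 0.990. Over all nuclei scaffold over untreated was 0.518 (0.446 to 0.601) and HGF scaffold over untreated was 0.492 (0.374 to 0.639).

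Rara, the broadly expressed retinoic acid receptor, had 133 UMIs spread over 121 nuclei. Its meningeal level was 56.4, 19.7 and 8.73 CPM in the HGF scaffold, scaffold and untreated libraries, from 3, 6 and 5 UMIs, against 13.6, 10.2 and 8.19 CPM in all other nuclei. The HGF scaffold ratio lay below 1 under other ways of choosing meningeal nuclei, so no direction is given. Over all nuclei HGF scaffold over untreated was 1.84 (1.06 to 3.10), and 0.992 with nuclei thinned to 500 UMIs, so no difference is read from it.

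Rxra, a retinoid X receptor that also pairs with other nuclear receptors such as LXR and PPAR, had its highest levels in myeloid-like nuclei. It had 364, 296 and 244 CPM in the Alpk3 cluster of the HGF scaffold, scaffold and untreated libraries (10, 38 and 43 UMIs). The Mapk13 cluster had 242 CPM (97 UMIs), 162 CPM (150 UMIs) and 359 CPM (6 UMIs). Meningeal nuclei had 0, 75.4 and 54.1 CPM, against 157, 123 and 73.7 CPM in all other nuclei. The 0 of the HGF scaffold library allows up to 56.4 CPM, which is 0.360 of the level of its other nuclei, and the ratio was past 2-fold in 7 of 15 other settings. The ratio was 0.612 (0.385 to 0.926) in the scaffold library and 0.734 (0.492 to 1.06) in the untreated library. With nuclei assigned by marker score these were 1.05 and 1.28, so no direction is given for those libraries.

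Over all nuclei Rxra was higher with an implant, at 151, 120.7 and 71.8 CPM in the HGF scaffold, scaffold and untreated libraries. HGF scaffold over untreated was 2.10 (1.78 to 2.48), scaffold over untreated 1.68 (1.49 to 1.90) and HGF scaffold over scaffold 1.25 (1.07 to 1.46). The Mapk13 myeloid-like cluster differed in the same order, with 32.9%, 17.9% and 0.712% of the nuclei. Its part in the Rxra ratio was not tested. Within endothelial-like nuclei Rxra was 126 CPM (28 UMIs) in the HGF scaffold library, 116 CPM (99 UMIs) in the scaffold library and 44.0 CPM (36 UMIs) in the untreated library. The endothelial-like ratios were 2.87 (1.69 to 4.83) for HGF scaffold over untreated and 2.63 (1.78 to 3.96) for scaffold over untreated. In the endothelial-like nuclei 1 of 5 members was at least 2-fold higher in scaffold than in untreated (Rxra) and 2 were at least 2-fold lower (Cyp26b1 and Rarb), where 13.5% of all genes were past 2-fold in either direction. The Cyp26b1 ratio rests on 7 scaffold and 21 untreated UMIs. Endothelial-like nuclei with a transporter UMI held 22 of the 30 Cyp26b1 and 52 of the 81 Rarb UMIs over all libraries. Transporter levels were also lower, at 203 CPM in scaffold and 357 CPM in untreated endothelial-like nuclei. The part of the transporter-bearing nuclei in the lower Cyp26b1 and Rarb levels was not tested. Neuron-like nuclei had 109, 96.96 and 54.3 CPM, and the oligodendrocyte-like Cntn2 cluster 121, 121 and 62.6 CPM.

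Rxrg, a retinoid X receptor, had its highest levels in nuclei with markers of glia. The Schwann cell-like Scn7a cluster, of peripheral myelinating-lineage markers such as Sox10, had 380.1, 127 and 189.5 CPM in the HGF scaffold, scaffold and untreated libraries, from 4, 8 and 16 UMIs. Among oligodendrocyte-like nuclei the Chst8 cluster, which has Enpp6 (a gene of newly formed oligodendrocytes) among its top genes by fold, had 75.6, 106 and 74.2 CPM. The Cntn2 cluster, led by an axonal contact gene of myelinated fibres, had 22.7, 9.51 and 16.5 CPM. The Chst8 cluster was higher in each library, but the HGF scaffold values of both clusters rest on few UMIs, with overlapping intervals. Over all libraries 19.5% of the 149 Chst8 nuclei had a UMI, against 3.48% of the 402 nuclei of the Cntn2 cluster. Their medians were 2154 and 2281 UMIs. Meningeal nuclei had 18.8, 3.28 and 19.2 CPM, from 1, 1 and 11 UMIs, and the Slc26a7 and Cldn1 clusters had none.

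**Figure D4:**
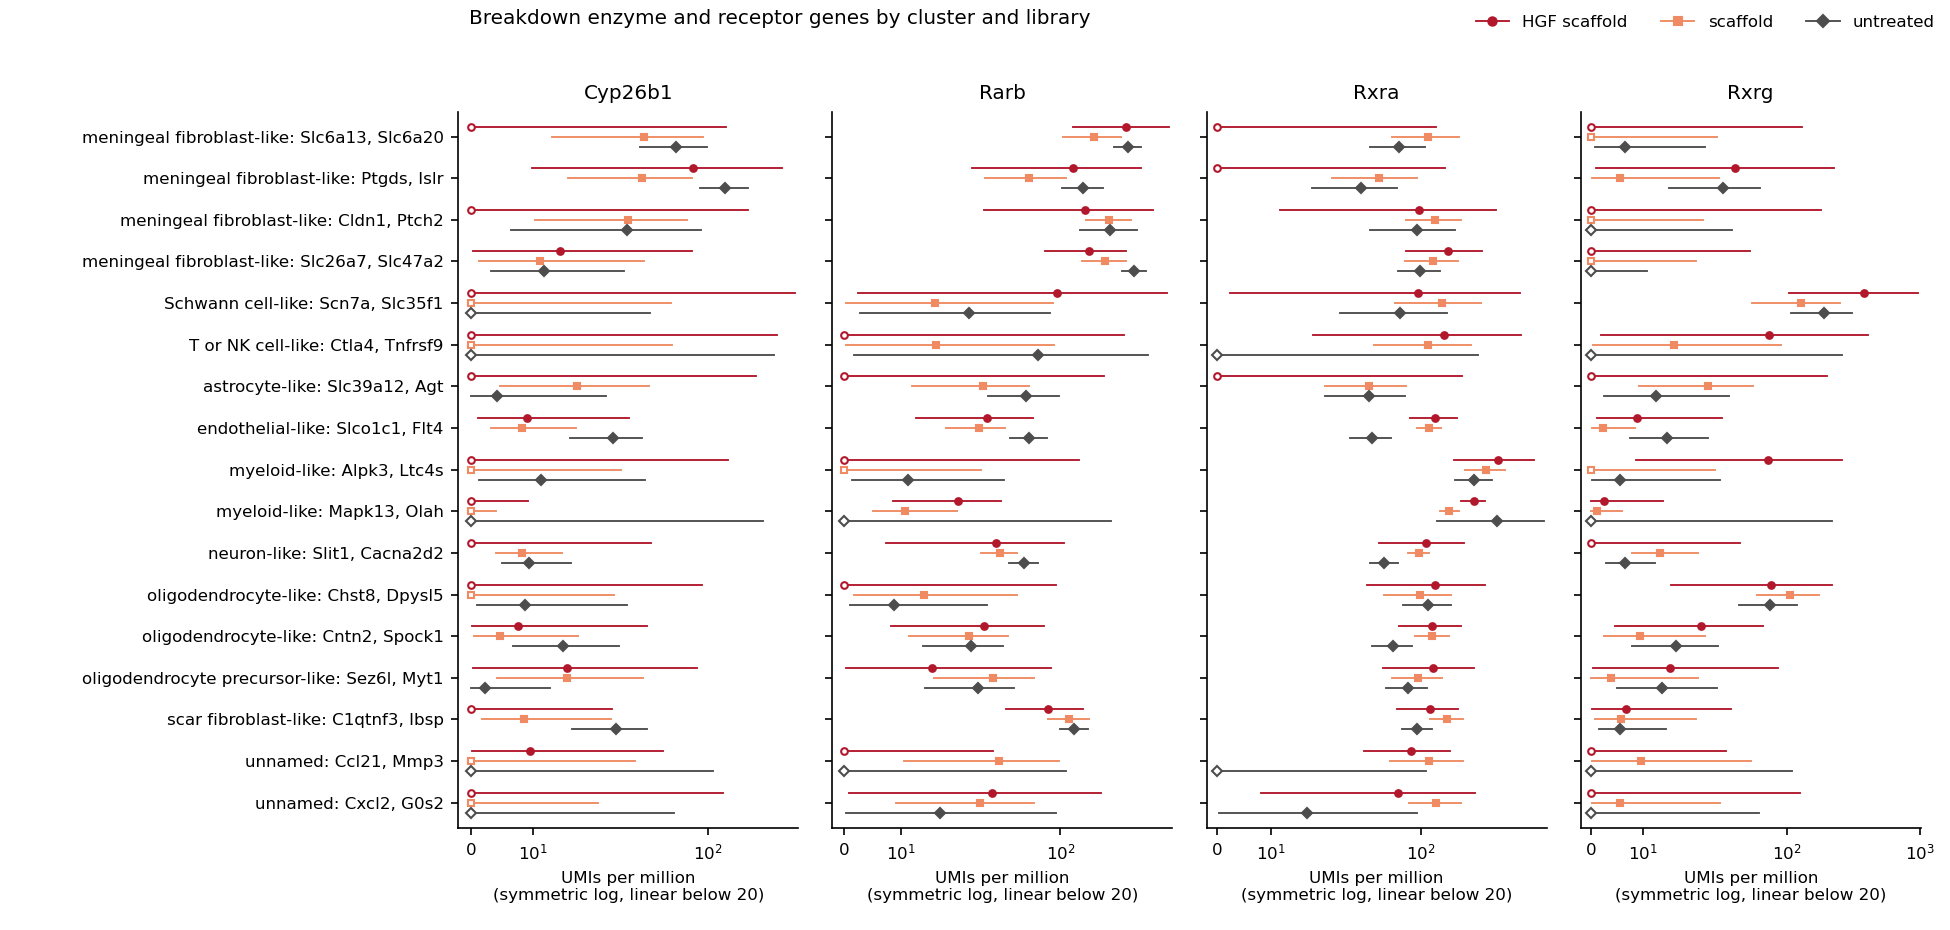
Levels of Cyp26b1, Rarb, Rxra and Rxrg (CPM, symmetric log axes, linear below 20) in clusters of at least 50 nuclei, 1 marker per library with at least 10 nuclei of it; bars are exact 95% Poisson intervals and open markers are 0 UMIs. Cyp26b1 and Rarb lie highest in meningeal fibroblast-like clusters, Rxra in the myeloid-like clusters (244 to 364 in the Alpk3 cluster) and Rxrg in the Scn7a Schwann cell-like cluster.

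Counted together, at most 2 members were past 2-fold in a comparison of libraries within meningeal nuclei, where 3 to 5 had enough UMIs. HGF scaffold over scaffold gave 0 of 3 members, where 17.1% of all genes were past 2-fold. Scaffold over untreated gave 2 of 5, both lower (Cyp26b1 and Rarb), where 9.81% of all genes were past it. HGF scaffold over untreated gave 2 of 4, both lower (Aldh1a2 and Cyp26b1), where 19.3% of all genes were. The median log2 ratios of the members were -0.42, -0.59 and -0.59, against -0.06, 0.04 and 0.00 over all genes. The last comparison shares its libraries with the other pair. The count for scaffold over untreated was 0 when the nuclei were clustered at a finer resolution, in each library alone or with the retinoid genes kept.

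Over all nuclei, HGF scaffold over untreated had 1 of 9 members at least 2-fold higher (Rxra) and 5 at least 2-fold lower (Aldh1a1, Aldh1a2, Aldh1a3, Cyp26b1 and Rarb), where 20.8% of all genes were past 2-fold in either direction. The ratios of Aldh1a1 and Aldh1a3 rest on 2 HGF scaffold UMIs each. Scaffold over untreated had none higher and 3 lower (Aldh1a2, Aldh1a3 and Cyp26b1), where 11.1% of all genes were past 2-fold. HGF scaffold over scaffold had 1 of 8 lower, Aldh1a1, from the same 2 UMIs, where 7.63% of all genes were past it. The medians of the members were -1.02, -0.51 and 0.07, against 0.07, 0.04 and 0.02 over all genes.

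**Figure D5:**
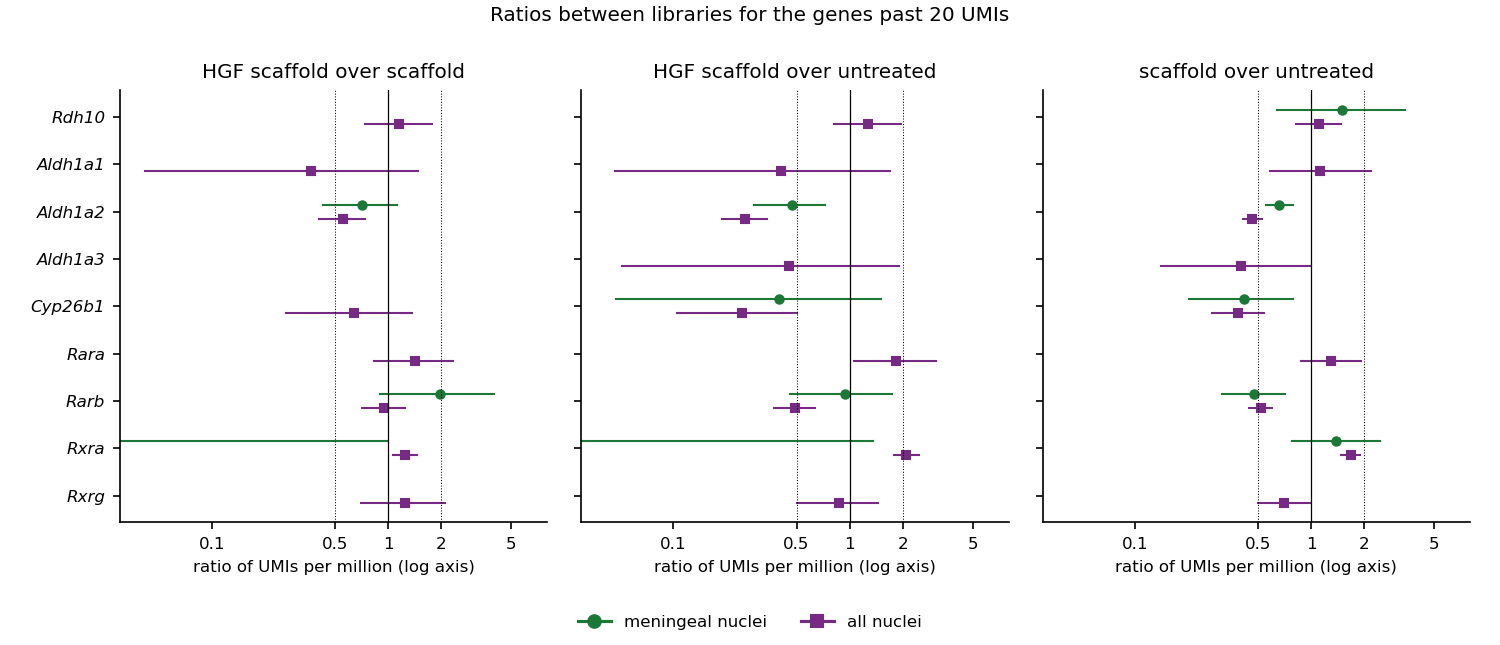
Ratios of CPM between libraries (log axis; dotted lines at 0.5 and 2) for members whose UMIs in the compared pair come to at least 20, in meningeal nuclei (circles) and in all nuclei (squares), with exact 95% intervals; a bar with no point has 0 UMIs in the HGF scaffold library. Over all nuclei Aldh1a2 and Cyp26b1 lie left of 0.5 for HGF scaffold over untreated and for scaffold over untreated, and Rxra lies right of 1.

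Other genes of retinol handling were also higher in meningeal nuclei than in the rest. Stra6, the membrane receptor that takes up retinol, had 56.4, 65.6 and 90.8 CPM in the meningeal nuclei of the HGF scaffold, scaffold and untreated libraries. It was 10.3-fold and 7.39-fold higher than in the other nuclei of the scaffold and untreated libraries. In the HGF scaffold library the Stra6 ratio was 4.15 (0.787 to 14.1), from 3 meningeal UMIs, with 1 inside the interval. Rbp4, the secreted retinol carrier, had 0, 42.6 and 34.9 CPM, 16.7-fold and 20.8-fold higher in the scaffold and untreated libraries. Crabp2, which carries retinoic acid to its receptors, had 207, 184 and 139.6 CPM, 9.04-fold, 6.85-fold and 4.01-fold higher than in the other nuclei. Dhrs3, which reduces retinal back to retinol, had 263, 171 and 225 CPM, 3.80-fold, 3.32-fold and 2.97-fold higher.

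Of 13 textbook retinoic acid target genes, 11 were in the files, and 10 had enough UMIs in the untreated library. There 7 of the 10 were at least 2-fold higher in meningeal than in other nuclei and none was lower, where 15.6% of all genes were higher. Rarres2, which encodes chemerin, had 94.1, 85.3 and 145 CPM in the meningeal nuclei of the HGF scaffold, scaffold and untreated libraries, and Tgm2, a transglutaminase, 56.4, 161 and 106 CPM. Cyp26b1 and Rarb are on this list too. In scaffold over untreated meningeal nuclei 0 of 9 of these genes were at least 2-fold higher and 2 at least 2-fold lower (Cyp26b1 and Rarb), where 9.81% of all genes were past 2-fold. HGF scaffold over untreated had 1 of 9 lower, Cyp26b1, a share below the 19.3% of all genes. Of 7 receptor coregulator genes measured in the untreated library, such as Ncor1 and Ncoa1, 0 were past 2-fold between meningeal and other nuclei.

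Other genes of the lists had a different place. Dhrs9, a retinol dehydrogenase, was highest in the Slc26a7 cluster, with 299, 329 and 549 CPM in the HGF scaffold, scaffold and untreated libraries, against 132, 105 and 94.3 CPM in meningeal nuclei. Fabp5, a fatty acid-binding protein that also binds retinoic acid, had 75.3, 82.0 and 20.9 CPM in meningeal nuclei. It was 3.91-fold (1.90 to 8.55) higher in scaffold over untreated meningeal nuclei. Over all nuclei Fabp5 was 3.29-fold (2.50 to 4.33) higher in HGF scaffold over untreated and 2.58-fold (2.08 to 3.204) in scaffold over untreated. Cyp26a1, the sister of Cyp26b1, had 1 UMI in all libraries.

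Genes most like each member were taken by Pearson correlation of log2(CPM + 1) over 33 sums of a cluster in a library, from 16 clusters. The sums share 3 libraries and their depth, so the values are descriptions. Aldh1a2 was most like Aox3 (r = 0.80), which encodes an aldehyde oxidase, then Pdzrn3 (0.79) and Nid2 (0.79), a basement membrane gene. Rarb was most like Nid2 (0.83), Eya2 (0.82) and Nalcn (0.82). Cyp26b1 was most like the transcription factor gene Zic1 (0.77), then Scara3 (0.72) and Col13a1 (0.71). Rxra was most like Nmnat3 (0.83) and Mark2 (0.83), and Rxrg like Adam23 (0.85), Gpm6b (0.79) and Shc4 (0.79). Nid2 was the gene shared by the lists of Aldh1a2 and Rarb.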

How the data were processed

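The authors deposited 1 matrix per library holding UMI counts per gene and nucleus, whole numbers that were not normalized. Per the submitters' processing notes the tool was Cell Ranger 6.0.1. Nuclei were isolated with a kit for neuronal tissue and captured as 10x Genomics 3′ libraries, per the labels' protocols; the genome build and annotation are not given in the sources used here. Groups were taken from the treatment label.

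Nuclei with at least 200 genes and at most 5% mitochondrial UMIs were kept, 5322 of 5326; 4 untreated nuclei were left out. Scrublet called 17 nuclei (0.319%), too few to have worked, so no doublet was removed, and 368 nuclei that carried 3 or more markers of each of 5 or more lineages were left out as an alternative. Joint clustering, with no batch integration, used scanpy 1.11.5 (Python 3.11.15, numpy 2.4.6, scipy 1.17.1, leidenalg 0.10.2) and 2000 variable genes without the retinoid lists, 30 principal components, 15 neighbours and Leiden resolution 1.0.

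A cluster took the name of a marker list with at least 3 genes at 4-fold or more above the median mean of other clusters and at least 2 ahead of the next list; this rule was set after seeing the data. Meningeal nuclei were those of clusters with both Slc6a13 and Slc6a20 among the 100 leading genes by that fold. All 9 members are named; of the wider lists, genes past 2-fold or highest in meningeal nuclei; and of the genes most like each member with at least 100 UMIs, the first of 5 among genes with at least 200 UMIs.

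Counts were summed per library and cluster as CPM with exact 95% Poisson intervals. Ratios have exact conditional intervals, and past 2-fold needs at least 20 UMIs in both groups together. A count of 0 was set to a floor of 3 counts per library. Shares have Clopper-Pearson intervals and were repeated with nuclei thinned to 500 UMIs, no nucleus being shallower. With 1 library per group no p-value is given, and intervals and floors cover counting error only. The steps for ratios, their intervals and calls past 2-fold were tested on simulated counts. Clustering, naming and thinning were not tested in this way. Members, lists and alternatives were chosen with earlier results of these data known. A few genes and clusters are not reported here.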

Additional observations from a re-analysis of the deposited data

How the results depend on the processing

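No paired analysis was possible because each group is 1 library. Across the alternatives, a member's ratio in a setting stayed within the counting interval of its main value 551 times. It lay outside 91 times and turned round 6 times. Of the counts of members, 78 stayed within 1.5 times and 36 did not. Using no count minimum, or asking for at least 50 UMIs, changes only which ratios are counted and not their values. These settings therefore add to the 551, and to the numbers of settings given above, by construction. Aldh1a2 was past 2-fold in meningeal over other nuclei under every alternative that gave a value, at 3.49 to 23.4 in the HGF scaffold, 5.31 to 24.7 in the scaffold and 4.83 to 16.04 in the untreated library.

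Members higher in meningeal nuclei of the HGF scaffold library numbered 4, and 2 with each library clustered alone, with nuclei assigned by marker score or with at least 50 UMIs asked for, and 0 with nuclei thinned to 500 UMIs. The scaffold count of 5 was 2 with nuclei chosen by a UMI of Slc6a13 or Slc6a20 and 3 after thinning. Within meningeal nuclei the HGF scaffold over scaffold count of 0 was 1 with at least 500 genes per nucleus, Leiden resolution 2, libraries clustered alone, retinoid genes kept or marker score, and 2 with a transporter UMI or no count minimum. Scaffold over untreated gave 2, and 1 without nuclei of 5 lineages, with equal weight per nucleus, after thinning or with the Slc26a7 and Cldn1 clusters added, 5 with no count minimum, and 0 with resolution 2, libraries clustered alone, retinoid genes kept, marker score or the Slc6a13 cluster alone. HGF scaffold over untreated gave 2, and 1 with resolution 2, retinoid genes kept, marker score, equal weight, the Slc6a13 cluster alone or the top nucleus of each library left out, 0 after thinning and 4 with no count minimum. Over all nuclei, HGF scaffold over scaffold gave 1, and 3 with equal weight, 2 without the top meningeal nucleus and 0 with at least 50 UMIs. Scaffold over untreated gave 3, and 1 with equal weight or after thinning.

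On the log2 scale, Rara in meningeal over other HGF scaffold nuclei turned to -0.33 with libraries clustered alone, -0.52 by marker score and -0.58 by a transporter UMI. Aldh1a1 in scaffold nuclei turned to -0.21 by marker score and -1.004 by a transporter UMI, and Aldh1a3 in scaffold over untreated, all nuclei, to 0.42 with equal weight. The cause was not tested. Settings chosen after seeing the data were the Slc6a13 cluster alone, the added Slc26a7 and Cldn1 clusters and the top nucleus left out. Depth limits Aldh1a1, Aldh1a3 and Rara in every library and Cyp26b1 in the HGF scaffold library.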
